A study of Homo sapiens with 66 samples.

Results

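The members described here are 708 introns, of 197626 in the deposited intron table, that lost reads in cells targeted at both ADAR and HNRNPC. They were chosen by measured values. On day 5 after nucleofection, the mean of the 3 ADAR-targeted libraries was at least 3 CPM (the count of an intron scaled by the total gene count of its library), and the mean of the 3 ADAR+hnRNPC-targeted libraries was at most 0.5 times that mean. Of all introns, 13075 reached 3 CPM in ADAR-targeted cells on day 5, and 568 of these were at least 2 times higher in ADAR+hnRNPC-targeted cells. Because the day-5 values of these 6 libraries chose the introns, that contrast is given as a description without a test, for the introns and for the genes that hold them.

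All cells were THP-1, a human monocytic leukemia line, transgenic for Cas9, and each study used 1 single-cell clone. In study 1, which holds the intron counts, the clone was STING deficient in every group, controls included, and gRNAs were delivered by nucleofection. The groups were CTRL (nontarget gRNA), GFP-targeted (a gRNA against GFP with nontarget gRNA), hnRNPC-targeted (HNRNPC with nontarget gRNA), ADAR-targeted (ADAR with nontarget gRNA), and ADAR+hnRNPC-targeted cells, each on days 3, 4, and 5, and CTRL cells given IFN-α, sampled on day 4. Each of these 16 groups had 3 replicates, so 48 libraries of ribosome-depleted total RNA were used. Study 2 used a wild-type THP-1 clone on day 4 with other gRNAs and 2 replicates per group. Its gene counts of total RNA were tested for the host genes alone, in a fit that also held its cytosolic and nuclear libraries.

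An intron is transcribed with its gene and removed by splicing, so reads on an intron come from RNA not yet spliced, from introns that stay in a transcript, and from exons of transcripts that are not in the set used to define the introns. The protein hnRNPC binds runs of uridine in nascent RNA and is known for competing with the splicing factor U2AF65 at cryptic 3′ splice sites, many of them in antisense Alu elements. ADAR deaminates adenosine to inosine in double-stranded RNA, much of it formed by inverted Alu pairs in introns. Total RNA was taken from bulk cultures, in which fewer cells of a type and less RNA per cell cannot be told apart.

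Libraries of study 1 held 95107690 to 152829008 counts on genes and 20930118 to 35684715 on introns. No pair of replicates agreed within sampling noise (the smallest chi-square per intron was 3.72). The targeted HNRNPC gene was at 729.5 to 846 CPM in CTRL, at 311 to 385 CPM in hnRNPC-targeted, and at 323 to 450 CPM in ADAR+hnRNPC-targeted libraries. ADAR RNA was at 353 to 395 CPM in ADAR-targeted and at 372 to 421 CPM in CTRL cells, so the RNA level does not check the ADAR gRNA. Of 8 monocytic markers, 6 were at 1 CPM or more in all 48 libraries. The summed level of the T cell markers was at most 0.194 CPM, and that of the fibroblast markers was at most 0.317 CPM. B cell markers summed to 1.89 to 6.45 CPM. The monocytic markers summed to 372 to 381 CPM in ADAR-targeted and 396 to 436 CPM in ADAR+hnRNPC-targeted libraries on day 5, but moved unequally. On that day CD14 was at 0.247 to 0.508 CPM in ADAR-targeted and 3.53 to 4.24 CPM in ADAR+hnRNPC-targeted libraries, and the integrin ITGAM was at 19.3 to 24.2 and 77.5 to 81.7 CPM. Lower were LYZ, which encodes lysozyme, at 119 to 138 and 74.9 to 101 CPM, and CD33 at 63.8 to 68.1 and 52.6 to 60.9 CPM. Their part in the results was not tested.

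The last 30 bases before the 3′ splice site hold the polypyrimidine tract, where hnRNPC and U2AF65 can meet. They are given here for 10 introns named in the results, which are not a representative sample of the members. The bases were read from GRCh37 and are written 5′ to 3′ on the strand of the gene. Capitals mark each run of 5 or more T and the final AG. The first 7 introns have such a run, which is a larger share than among all members, given below.
MFSD1 chr3:158526938-158526967, plus strand: tctggTTTTTTTTTTTTTTTctaTTTTTAG
MFSD1 chr3:158537408-158537437, plus strand: tgTTTTTcTTTTTTTTTTTTTTTTatttAG
CCNG2 chr4:78086924-78086953, plus strand: tcctcTTTTTTTgtctcTTTTTctctttAG
HNRNPC chr14:21698526-21698555, minus strand: aattaacccttttcggtatttaTTTTTcAG
NUCKS1 chr1:205687608-205687637, minus strand: cccttccccaaattaTTTTTctattttcAG
IARS2 chr1:220307714-220307743, plus strand: TTTTTTTTTcttttaatacttaattttgAG
EIF3D chr22:36912838-36912867, minus strand: ctctgtcttgtgacacctttgTTTTTgcAG
The other 3 have no run of 5 T in this window.
SCD chr10:102116259-102116288, plus strand: attgacctggtgtctggtctgtcaatgtAG
LRP8 chr1:53712729-53712758, minus strand: aatgatgaattctttggtttgtctccccAG
RFX8 chr2:102031375-102031404, minus strand: attaatggccacgtgtgttgttcttaacAG

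Across the members, TTTTT was found on the gene strand in the last 30 bases of 127 of 687 introns for which this window could be read (18.5%). Among the other introns with at least 3 CPM, it was found in 3387 of 11930 (28.4%). A match describes the letters in the window and is not a binding site. Members were shorter than those other introns, with a median length of 2736 against 5647 bases, and their median GC content was 46.7% against 42.0%. A small RNA gene lay inside 3.25% of the members and 6.61% of the other introns. A gene on the opposite strand overlapped 87 members (12.3%), and since the strand setting of the authors' counting was not stated, their reads cannot be assigned to a strand.

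The authors' introns are the parts of a gene not covered by its principal (APPRIS) exons, so they can hold exons of other transcripts. By an annotation that is newer than the authors' one, 629 members had an exon at both ends, 36 at 1 end, and 24 at neither, and 19 could not be placed. More than 50% of the length was annotated exon in 178 members (25.1%, against 18.5% of the other introns), and 235 members held no annotated exon base. The most abundant members were of the former kind. The MFSD1 intron chr3:158546906-158547508, an interval each of MYC, NPM1, and the noncoding SNHG16, and an 89-base interval of EEF1A1 all were 100% annotated exon. NPM1 and EEF1A1 have processed pseudogenes of near-identical sequence, as have PTMA and the ribosomal protein genes, so their unique counts are uncertain. Inside more than 1 gene lay 67 members, whose reads cannot be assigned to a single gene.

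In the contrast that chose them, members had a median of 5.60 CPM in ADAR-targeted and 2.25 CPM in ADAR+hnRNPC-targeted cells, and group means reached 153 and 65.7 CPM. The ratio of the means had a median of 0.438 and lay between 0.0317 and 0.4998. In 706 of 708 introns all 3 ADAR+hnRNPC-targeted libraries lay below all 3 ADAR-targeted ones, and in 2 they overlapped. Of all 13075 introns with at least 3 CPM, 42.3% had no such overlap, and the count for members is close to given by their choice. Together the members took 0.699 to 0.713% of the gene total in ADAR-targeted and 0.290 to 0.299% in ADAR+hnRNPC-targeted libraries. Just inside the threshold were introns of APRT (chr16:88876249-88876477, 3.55 and 1.77 CPM), PTMA (chr2:232577227-232577513, 22.3 and 11.1 CPM), and RAB44 (chr6:36686366-36688139, 13.8 and 6.88 CPM). Just outside it were introns of IRF8 (chr16:85953831-85954711, 6.26 and 3.13 CPM), RPL7 (23.0 and 11.5 CPM), and SF1 (chr11:64537881-64540901, 20.6 and 10.3 CPM). Without any 1 of the 6 libraries, 626 to 656 of the 708 introns still met the rule.

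The lowest ratios were found in introns of a handful of genes. An intron of RFX8, a member of the RFX family of transcription factors, was at 8.02, 7.06, and 9.09 CPM in ADAR-targeted and at 1.01, 1.06, and 1.44 CPM in ADAR+hnRNPC-targeted cells (chr2:102031375-102033995, ratio 0.145). An intron of TERT, the catalytic subunit of telomerase, was at 4.3, 3.27, and 2.56 CPM and at 0.647, 0.667, and 0.482 CPM (chr5:1260716-1264518, ratio 0.177). An intron of SERPINB2, an inhibitor of plasminogen activators, was at 5.11, 5.65, and 5.2 CPM and at 0.881, 1.25, and 0.915 CPM (chr18:61569117-61569637, ratio 0.191). In each of these the groups did not overlap. An intron of WNT7B, a secreted Wnt ligand, had a ratio of 0.213 (chr22:46319216-46326977).

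For a pair of introns, 1 library decided the ratio. An intron of ATL1, a GTPase of the endoplasmic reticulum, was at 0.383, 0.454, and 42.3 CPM in ADAR-targeted cells on day 5, which are counts of 42, 46, and 4580 (chr14:51089967-51094748). An intron of the neighbouring SAV1, a scaffold of the Hippo pathway, was at 0.519, 0.582, and 10.1 CPM in the same libraries (chr14:51102103-51107467). Both introns were high in single libraries of other groups as well, at 17.6, 23.4, and 0.393 CPM for ATL1 in hnRNPC-targeted cells on day 4 and at 0.461, 26.3, and 35.1 CPM for SAV1 in hnRNPC-targeted cells on day 5. The cause of the high values was not tested.

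The members lay in 435 named genes, and 681 members were in protein-coding hosts. A single member was found in 322 genes, 2 in 57 genes, and 3 or more in 56 genes, and 151 members lay in 22 genes with at least 5 each. LYST, a regulator of lysosomal trafficking, held the most, with 20 of its 46 introns at 3 CPM or more. TTC7A, a scaffold of a phosphatidylinositol kinase complex, followed with 12 of 15, and ANXA4, a calcium-dependent phospholipid-binding protein, and RUBCNL, a factor of autophagosome maturation, had 8 of 11 each. In other genes every intron at this level was a member, among them all 7 of PLD4, all 6 of FDFT1, all 5 of CTSG, and all 5 of SQLE. The transcription factors IRF8 and MEF2D each had 7 of 8.

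**Figure D1:**
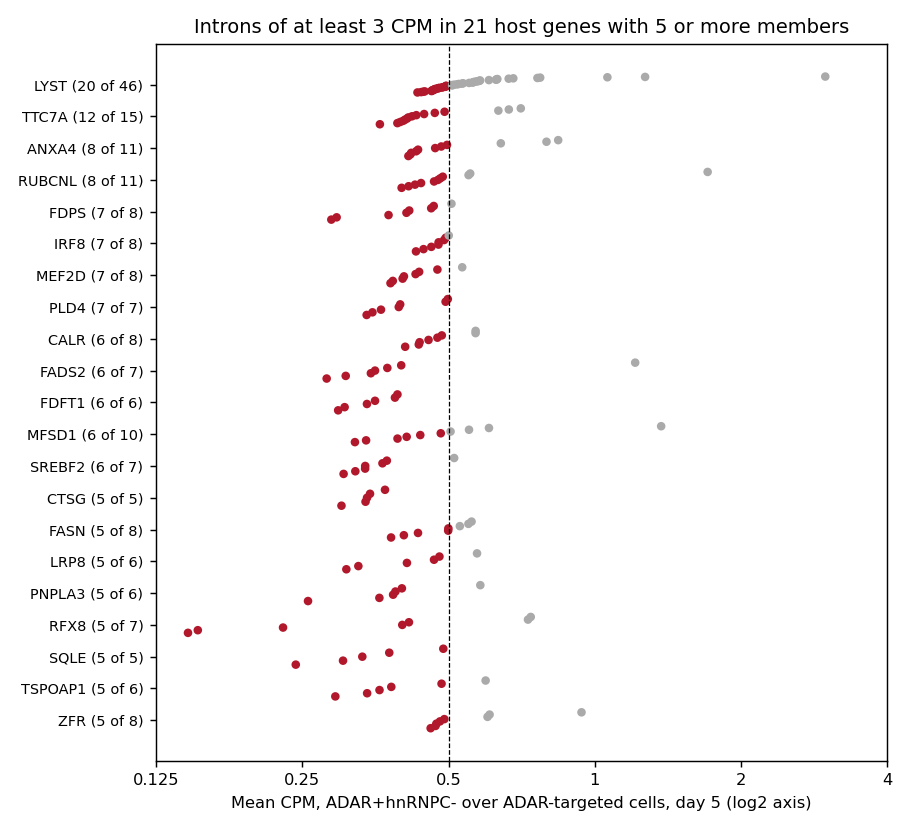
Ratio of the mean CPM in ADAR+hnRNPC-targeted to that in ADAR-targeted cells on day 5 for each intron with at least 3 CPM in 21 of the 22 genes with 5 or more members, 1 gene per line. Red points are members and grey points other introns, and the dashed line is the ratio of 0.5 that chose the members. In PLD4, FDFT1, CTSG, and SQLE every point is a member, whereas in LYST 26 of 46 points are not.

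Host genes differed in how far the whole gene went along with its introns. In this contrast the gene counts of FADS2, PLD4, RFX8, and CTSG had ratios of 0.342, 0.354, 0.375, and 0.409, below the value that the rule asked of the introns. LYST had a gene ratio of 0.925, and LRP8, a receptor for apolipoprotein E, one of 1.13. Of the members, 656 lay inside exactly 1 tested gene, in 402 genes. Their median log2 ratio was -1.19, and the median of their genes, taken over introns, was -0.79. In 586 of 656 the intron had the lower ratio. The rule capped the ratio of the introns and not that of the genes, so this count is largely given by the choice. Members that hold annotated exon can also share reads with their gene. Of the 402 genes, 99 were also at 0.5 times or less (24.6%, against 3.72% of 13193 tested genes), and 37 were above 1. The widest gap without a single deciding library was at HSH2D, an IFN-induced adapter protein. Its intron was at 16.5, 15.2, and 13.1 CPM in ADAR-targeted and 3.69, 4.09, and 3.94 CPM in ADAR+hnRNPC-targeted cells (chr19:16245046-16252750), whereas the gene was at 11.6, 9.88, and 12.3 CPM and 88.3, 96.1, and 134 CPM.

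Genes of sterol and fatty acid synthesis were frequent hosts. This group of 34 genes was set up after the hosts had been seen, so its counts are no independent evidence. It held 63 members in 18 of its genes, of 77 introns at 3 CPM or more, beside 708 of all 13075 such introns. Among them were genes of the mevalonate pathway from HMGCS1 through FDPS and FDFT1 to SQLE and LSS, the regulators SREBF2 and INSIG1, and the fatty acid enzymes FASN, SCD, FADS1, and FADS2. SCD, the stearoyl-CoA desaturase, had all 3 of its introns among the members. Its last intron was at 3.33, 4.48, and 4.75 CPM in ADAR-targeted and at 0.797, 0.726, and 1.39 CPM in ADAR+hnRNPC-targeted cells on day 5 (chr10:102114390-102116288), with no overlap.

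Among the groups that did not choose the members, the levels were lower with HNRNPC targeting. The median over the 708 introns on day 5 was 6.4, 5.11, and 5.73 CPM in the CTRL libraries and 3.48, 3.53, and 3.56 CPM in the hnRNPC-targeted ones, which did not overlap. It was 5.97, 5.74, and 5.62 CPM in GFP-targeted cells, within the CTRL values. Per group, the median over introns in hnRNPC-targeted cells was 4.81 CPM on day 3, 3.96 CPM on day 4, and 3.53 CPM on day 5, and it stayed between 5.42 and 5.75 CPM in CTRL cells. On days 3 and 4 it was 4.38 and 3.60 CPM in ADAR+hnRNPC-targeted and 5.59 and 5.07 CPM in ADAR-targeted cells. The day-5 medians of these latter groups, 2.25 and 5.60 CPM, were fixed by the choice of the introns.

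**Figure D2:**
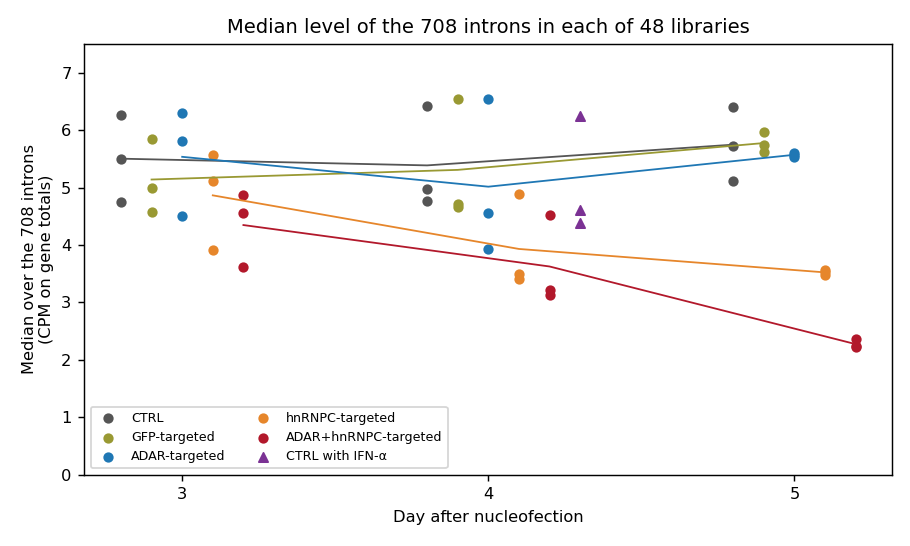
Median CPM over the 708 introns in each of the 48 libraries (points, vertical axis from 0) by day after nucleofection, with lines through the mean of the 3 replicates of each group and triangles for CTRL cells with IFN-α. On day 5 the hnRNPC-targeted libraries (3.48 to 3.56 CPM) lie below all CTRL libraries, and the ADAR+hnRNPC-targeted libraries (2.22 to 2.36 CPM) are the lowest, which the choice of the introns fixed for that group.

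Replicates of 1 day moved together. Replicate 1 had the highest median of its group in all 6 groups of day 4, for example 6.41, 4.98, and 4.77 CPM in CTRL and 4.88, 3.41, and 3.50 CPM in hnRNPC-targeted cells. Replicate 3 had the lowest median in all 5 groups of day 3. Over the other introns with at least 3 CPM, replicate 1 was also the highest in all 6 groups of day 4, with library medians of 5.61 to 6.96 CPM in replicate 1 and 3.70 to 5.07 CPM in the other replicates.

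hnRNPC-targeted and CTRL cells, none of which chose the members, were compared to ask how HNRNPC targeting without the ADAR gRNA left these introns. With edgeR's quasi-likelihood test over all 21838 introns that passed a filter on low counts, an intron was called at a log2 fold change of at least 1 in size and a Benjamini-Hochberg adjusted p of at most 0.05. Of the 708 members, 704 passed the filter. An intron each of SCD and FADS2 and 2 of LSS did not. On day 5, 190 members were lower (background of all introns, 1.85%) and 1 was higher (background 4.64%). The higher one was the SAV1 intron, which is high in single libraries. On day 4, 57 members were lower (background 0.426%) and 1 was higher, the ATL1 intron (background 3.83%). On day 3, 10 were lower (background 0.0824%) and none was higher (background 2.86%, edgeR). With no minimum fold, edgeR gave an adjusted p of at most 0.05 to 83 lower members on day 3 (background 1.41%), 245 on day 4 (background 3.79%), and 429 on day 5 (background 11.8%).

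The median log2 fold change of members was -0.17, -0.45, and -0.72 on days 3, 4, and 5, and that of all introns 0.18, 0.10, and -0.00. On day 5 it was below 0 in 660 of 704 members. CTRL and hnRNPC-targeted replicates are separate samples by the labels, and p-values measure the spread between them with no term for the replicate. Same-numbered replicates moved together on days 4 and 5. With a replicate block, 187 calls in place of 191 were made on day 5 and 59 in place of 58 on day 4. Of the 57 introns lower on day 4, 47 were also lower on day 5, a count made among members alone.

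**Figure D3:**
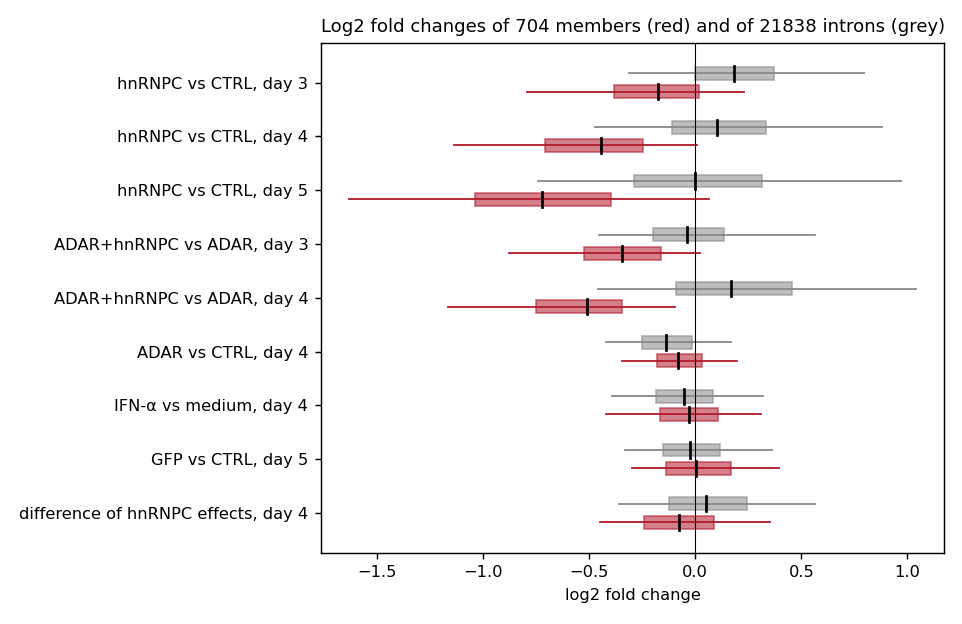
Log2 fold changes of the 704 members (red) and of all 21838 introns (grey) in 9 comparisons, with boxes from the 25% to the 75% quantile, lines from 5% to 95%, and the median as a black bar. In hnRNPC-targeted cells the members' median moves from -0.17 on day 3 to -0.72 on day 5, while it is -0.08, -0.03, and 0.00 for ADAR targeting, IFN-α, and GFP targeting.

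An intron of HNRNPC itself, the targeted gene, was already low on day 3. On day 5 the HNRNPC intron chr14:21698526-21699155 was at 39.9, 40.5, and 37.5 CPM in CTRL and at 14.7, 12.4, and 13.7 CPM in hnRNPC-targeted cells, and the groups did not overlap. The log2 fold change was -1.46 ± 0.08 (SE) on day 3 (edgeR adjusted p = 3.36e-16), -1.50 on day 4, and -1.52 on day 5. A further HNRNPC interval that is wholly annotated exon (chr14:21677295-21678771) went from -1.13 on day 3 to -1.43 on day 5.

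MLC1, which encodes a membrane protein, had a 177-base intron with a large difference that grew with time. It was at 4.26, 4.33, and 4.97 CPM in CTRL and at 2.12, 2.17, and 2.00 CPM in hnRNPC-targeted cells on day 3. On day 5 it was at 4.47, 4.42, and 4.27 CPM and at 0.733, 0.991, and 1.02 CPM (chr22:50523391-50523567). The groups did not overlap on either day, and the log2 fold change was -1.12, -1.80, and -2.25 ± 0.16 on days 3, 4, and 5 (edgeR adjusted p on day 5 = 2.92e-14). CCNG2, which encodes cyclin G2, had an intron at 3.45, 3.06, and 4.57 CPM in CTRL and 0.831, 0.824, and 0.864 CPM in hnRNPC-targeted cells on day 5 (chr4:78085633-78086953). Its log2 fold change went from -1.14 on day 3 to -2.12 ± 0.21 on day 5 (edgeR adjusted p = 1.88e-10).

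The largest fall on day 5 was that of the SERPINB2 intron chr18:61569117-61569637, at 6.45, 6.11, and 5.85 CPM in CTRL and 1.07, 1.60, and 0.827 CPM in hnRNPC-targeted cells. This is a log2 fold change of -2.38 ± 0.34 (edgeR adjusted p = 8.71e-07). A GFP-targeted library had 1.81 CPM of this intron, with 6.06 and 6.34 CPM in the other two. RNF175, a RING finger gene, had an intron at 23.9, 20.1, and 18 CPM in CTRL and 3.78, 5.01, and 3.55 CPM in hnRNPC-targeted cells (chr4:154633729-154636680), a log2 fold change of -2.31 ± 0.30. An intron of ENSG00000266953 was at 26.7, 25.6, and 24.3 CPM and at 5.14, 5.03, and 6.50 CPM (chr19:34891234-34895288), a log2 fold change of -2.19 ± 0.12 (edgeR adjusted p = 4.34e-17). None of these groups overlapped. The RFX8 intron with the lowest ratio was at 8.89, 5.82, and 7.95 CPM and at 1.54, 1.82, and 2.10 CPM, a log2 fold change of -2.04 ± 0.36, also without overlap.

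Several of the 8 most abundant members were also lower in hnRNPC-targeted cells. The MFSD1 interval chr3:158546906-158547508 was at 175, 180, and 181 CPM in CTRL and 43.8, 52.6, and 47.7 CPM in hnRNPC-targeted cells on day 5, a log2 fold change of -1.88 ± 0.08 (edgeR adjusted p = 3.74e-21). MFSD1 encodes a lysosomal transporter. The MYC interval, in the gene of a growth-promoting transcription factor, was at 111, 110, and 113 CPM and at 46.7, 49.9, and 50.9 CPM, a log2 fold change of -1.16 ± 0.07. The SNHG16 interval was at 116, 117, and 101 CPM and at 42.4, 43.9, and 42.4 CPM (chr17:74559792-74561460), a log2 fold change of -1.36 ± 0.07 (edgeR adjusted p = 1.45e-17). In these 3 the groups did not overlap.

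Others of the most abundant members were not called. The EEF1A1 interval, in the gene of the elongation factor eEF1A, was at 113, 116, and 117 CPM in CTRL and 100, 114, and 110 CPM in hnRNPC-targeted cells on day 5, which overlapped (chr6:74227988-74228076). Its log2 fold change was -0.08, with an edgeR adjusted p of 0.528, although it had been chosen for 134, 137, and 125 CPM against 70.1, 65.9, and 61.3 CPM in the ADAR-targeted groups. HNRNPH1, which encodes an hnRNP splicing factor, had an intron at 148, 90.8, and 111 CPM in CTRL and 66.3, 71.1, and 68.2 CPM in hnRNPC-targeted cells (chr5:179046409-179047892), a log2 fold change of -0.75 ± 0.36 that did not pass the test (edgeR adjusted p = 0.129). NPM1, the nucleolar protein nucleophosmin, had an interval with a log2 fold change of -0.97 ± 0.08 on day 5, below the minimum fold of a call (chr5:170832408-170834703, edgeR adjusted p = 6.83e-12).

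**Figure D4:**
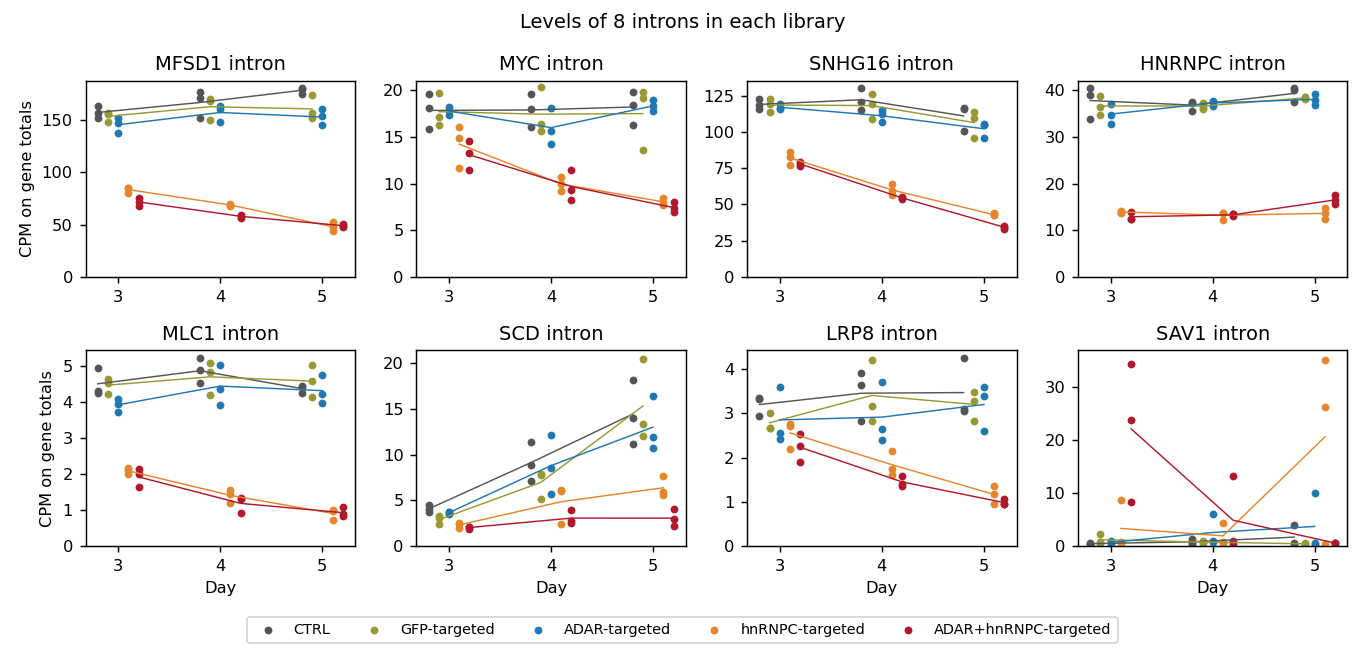
CPM of 8 introns in every library by day (points, vertical axes from 0), with lines through the group means, each being the member of its gene with the lowest log2 fold change in hnRNPC-targeted cells on that day. The MFSD1, SNHG16, HNRNPC, and MLC1 introns are low in both groups with the HNRNPC gRNA, and the SAV1 intron is high in single libraries, at 26.3 and 35.1 CPM in hnRNPC-targeted cells on day 5.

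A call on day 3 did not always return on day 5. PLXNA1, a semaphorin co-receptor, had an intron at 4.61, 4.83, and 3.68 CPM in CTRL and 1.87, 2.07, and 2.03 CPM in hnRNPC-targeted cells on day 3, with no overlap (chr3:126710410-126722172). Its log2 fold change was -1.15 ± 0.19 on day 3 and -1.03 on day 4 and was -0.34 on day 5, where it did not pass the test (edgeR adjusted p = 0.19). The SQLE introns, in the gene of squalene epoxidase, had 0 of 5 called on day 3 and 5 of 5 lower on day 5.

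Hosts with many members differed in the same comparison. In RUBCNL, 8 of 8 members were lower in hnRNPC-targeted cells on day 5, with log2 fold changes from -1.58 to -1.12, and the gene was at 108, 102, and 82.3 CPM in CTRL and 46.8, 50.6, and 36.2 CPM in hnRNPC-targeted cells (log2 fold change -1.12). RFX8 had 4 of 5 lower, FDFT1 had 4 of 6, MFSD1 had 4 of 6, and CTSG, a serine protease of myeloid granules, had 3 of 5. In LYST, 0 of 20 members were called and their median log2 fold change was -0.79. The LYST gene was at 1425, 1416, and 1329 CPM in CTRL and 1157, 1382, and 1307 CPM in hnRNPC-targeted cells, which overlapped, and its log2 fold change was -0.10. IRF8, with 0 of 7 called, had members from -1.0 to -0.45 and a gene log2 fold change of -0.69. The PLD4 members, in the gene of a lysosomal exonuclease, had log2 fold changes from -0.60 to 0.22, and 0 of 7 were called.

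ADAR+hnRNPC-targeted and ADAR-targeted cells of the earlier days ask when the loss is seen, in libraries that the rule did not use. On day 3, 19 members were lower (background 0.147%) and 1 was higher, again the SAV1 intron (background 1.68%, edgeR). On day 4, 69 members were lower (background 0.403%) and none was higher (background 5.44%). The median log2 fold change was -0.35 on day 3 and -0.51 on day 4, beside -0.04 and 0.17 for all introns. On day 4 the log2 fold change was below 0 in 688 of 704 members, against 33.3% of all introns. Of the 19 introns lower on day 3, 16 were also lower on day 4, again counted among members alone.

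On day 4, the MLC1 intron had the largest fall in this comparison, -1.97 ± 0.15 on the log2 scale (edgeR adjusted p = 1.05e-12), and the ENSG00000266953 intron followed at -1.82 ± 0.12. The last SCD intron was at 3.34, 2.37, and 2.38 CPM in ADAR-targeted and 0.922, 0.710, and 1.04 CPM in ADAR+hnRNPC-targeted cells, a log2 fold change of -1.66 ± 0.27 (edgeR adjusted p = 8.91e-06) without overlap. An intron of PRTN3, the granule protease proteinase 3, was at 88.7, 20.6, and 16.3 CPM and at 14.7, 11.2, and 12.7 CPM (chr19:846378-847798). There the log2 fold change of -1.75 (edgeR adjusted p = 0.0245) comes with 1 ADAR-targeted library far above the other two. The MFSD1 interval was at 148, 161, and 164 CPM and at 56.2, 59.4, and 58.3 CPM, a log2 fold change of -1.52 ± 0.07.

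On day 3 the HNRNPC intron was lowest in this comparison, at -1.45. F3, which encodes tissue factor, had an intron at 3.31, 3.81, and 4.12 CPM in ADAR-targeted and 1.47, 1.49, and 1.34 CPM in ADAR+hnRNPC-targeted cells, with no overlap (chr1:95005925-95007092). The F3 intron had a log2 fold change of -1.40 ± 0.26 (edgeR adjusted p = 0.000269), and of -1.57 in hnRNPC-targeted against CTRL cells on day 4. TEFM, a mitochondrial transcription elongation factor, had an intron at -1.32 ± 0.18 (chr17:29224354-29226000), and ADAT2, a tRNA adenosine deaminase, had one at -1.27 (chr6:143759832-143763305, edgeR adjusted p = 0.0343).

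The comparisons of HNRNPC targeting with and without the ADAR gRNA share no library. Introns called in several comparisons were counted among the members alone, which were chosen for a fall. The matching shares over all introns are not given. Of 190 introns lower in hnRNPC-targeted cells on day 5 and 69 lower in ADAR+hnRNPC-targeted cells on day 4, 54 were on both lists, 28.4% of the former and 78.3% of the latter. On day 4, 38 introns were on both lists, 66.7% of the 57 and 55.1% of the 69. Over the 5 comparisons, 216 members were lower in at least 1 and 6 in all 5. The 6 were both HNRNPC introns, the MLC1, CCNG2, and ENSG00000266953 introns, and an intron of ANKRD10 (chr13:111532460-111536044). The ANKRD10 intron was at 6.31, 6.13, and 6.30 CPM in CTRL and 3.48, 3.46, and 2.53 CPM in hnRNPC-targeted cells on day 3, with no overlap.

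For 492 of 708 members no call was made in any of these 5 comparisons. The difference between the effect of HNRNPC targeting with the ADAR gRNA and without it, tested as an interaction on day 4, was called for 0 members (background 0.0916%, edgeR), and for 0 by DESeq2 and limma-voom. At an unadjusted p under 0.05 it had 45 members. The adjusted p was under the threshold for 2, the EEF1A1 interval at -0.63 ± 0.11 and an intron of the ribosomal protein gene RPL23 at -0.65 ± 0.12 (chr17:37008986-37009274). EEF1A1 had an edgeR log2 fold change of -0.48 ± 0.08 in ADAR+hnRNPC-targeted against ADAR-targeted cells on day 4. No interaction was tested on day 5, since the rule used it.

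ADAR targeting without the HNRNPC gRNA gave no call on day 4 among members or among all introns (background 0%, edgeR), with 27 members at an unadjusted p under 0.05 and 0 calls of members by DESeq2 and limma-voom. IFN-α for 24 h gave 2 calls, both lower. Of all 21838 introns, 7 were lower and 173 higher (0.824% in either direction). An intron of MEGF6, a protein with EGF-like domains, was at 24.1, 23.2, and 16.9 CPM without and 12.4, 10.4, and 7.63 CPM with IFN-α (chr1:3440811-3496388, log2 fold change -1.03). An intron of TTC5, a p53 cofactor, was at 3.42, 5.28, and 2.86 CPM without and 1.82, 1.62, and 2.08 CPM with IFN-α (chr14:20724717-20754386, -1.02). Neither overlapped. GFP-targeted cells had 0 members called on day 5 (background 0.00458%, edgeR), with 41 at an unadjusted p under 0.05 and 0 calls by DESeq2 and limma-voom. The members' medians were -0.08, -0.03, and 0.00 for ADAR targeting, IFN-α, and GFP targeting, beside -0.14, -0.05, and -0.03 for all introns. These comparisons share the CTRL libraries of their day with those of hnRNPC-targeted cells.

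The 402 host genes were then tested with edgeR over 13193 genes. In hnRNPC-targeted cells on day 5, 51 were lower (background 3.07%) and none was higher (608 of all 13193 genes). Their median log2 fold change was -0.38 beside 0.03 for all genes. In ADAR+hnRNPC-targeted against ADAR-targeted cells on day 4, 21 were lower (background 0.985%) and 1 was higher (427 of all genes). The higher one was CC2D2A, a gene of the ciliary transition zone, at 1.02. The lowest on day 5 was PRMT3, a protein arginine methyltransferase, at 29.6, 29.4, and 26.1 CPM in CTRL and 4.13, 5.14, and 5.81 CPM in hnRNPC-targeted cells, a log2 fold change of -2.48 ± 0.09 (edgeR adjusted p = 1.69e-23). IARS2, the mitochondrial isoleucyl-tRNA synthetase, was at 408, 438, and 409 CPM and at 86.5, 91.5, and 97.6 CPM, a log2 fold change of -2.17. MFSD1 was at 611, 620, and 595 CPM and at 180, 190, and 183 CPM, a log2 fold change of -1.71. The groups did not overlap in any of the 3. With IFN-α, 2 host genes were called (background 1.32%, edgeR). MEGF6 was lower at -1.09, and HSH2D was higher at 2.02, from 7.41, 6.66, and 6.05 CPM to 30.5, 26.1, and 22.3 CPM.

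Study 2 tested the host genes in another clone with other gRNAs. Of 400 host genes tested in total RNA, 5 were lower in hnRNPC-targeted cells (background 0.425%, edgeR), and their median log2 fold change was -0.14. PRMT3 was at 29.8 and 27.9 CPM in CTRL and 12 and 15.2 CPM in hnRNPC-targeted cells (-1.11). EBF3, a transcription factor, was at 7.23 and 8.76 CPM and at 3.46 and 3.42 CPM (-1.24). Neither overlapped. In WNT7B and in RUNX2, a transcription factor, the CTRL replicates lay far apart, at 5.4 and 21.9 CPM and at 53.8 and 121 CPM, and MKI67 was the fifth. In ADAR+hnRNPC-targeted against ADAR-targeted cells, 0 were lower (background 0.0659%, edgeR) and 4 were higher (background 2.95%), SOGA1, MKI67, CC2D2A, and SEC63, with a median over host genes of -0.30.

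To set each intron beside its gene, the log2 ratio of intron to host gene CPM was tested with limma over 20364 introns inside exactly 1 tested gene, among them 652 members. Gene counts are made on exons, so a member that holds annotated exon can share reads with its gene. For such members a part is set beside the whole. In hnRNPC-targeted cells on day 5, 29 members were lower than their gene (background 0.442%) and 1 was higher (background 5.21%), with a median of -0.21 beside 0.03 for all introns. In ADAR+hnRNPC-targeted against ADAR-targeted cells on day 4, 17 were lower (background 0.231%) and 1 higher (background 5.82%), with a median of -0.06 beside 0.16. With IFN-α, 1 member was called (background 0.108%), the HSH2D intron, which was at 17.3, 10.2, and 12.3 CPM with and 17.9, 10.0, and 9.67 CPM without IFN-α while its gene rose. For the other 622 members on day 5 no difference from the gene was called.

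LRP8 had the largest loss against its gene. Its intron chr1:53712729-53715051 was at 4.25, 3.06, and 3.09 CPM in CTRL and 0.963, 1.37, and 1.17 CPM in hnRNPC-targeted cells on day 5, a log2 fold change of -1.55 ± 0.18 (edgeR adjusted p = 1e-08). The gene was at 97.8, 96.5, and 91.2 CPM and at 183, 165, and 157 CPM, a log2 fold change of 0.84 ± 0.05 (edgeR adjusted p = 1.85e-16). Neither intron nor gene overlapped between the groups, and they went in opposite directions. Intron against gene differed by -2.37 ± 0.18 (limma adjusted p = 2.64e-13). All 5 LRP8 members were called lower than the gene on day 5, and 4 of them also in ADAR+hnRNPC-targeted against ADAR-targeted cells on day 4.

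MMS22L, which encodes a protein of replication fork repair, had an intron at 11.3, 9.96, and 12.4 CPM in CTRL and 3.14, 3.58, and 5.48 CPM in hnRNPC-targeted cells on day 5, with no overlap (chr6:97702610-97711210). Its log2 fold change was -1.45 while that of the gene was 0.20, and intron against gene differed by -1.68 ± 0.18 (limma adjusted p = 4.19e-09). RAB8A, a small GTPase of vesicle transport, had an abundant intron at 89.6, 84.8, and 73.0 CPM and at 50.5, 47.8, and 35.4 CPM (chr19:16232621-16236279). The RAB8A gene was at 30.4, 28.1, and 30.7 CPM and at 37.9, 36.4, and 36.3 CPM, and intron against gene differed by -1.21 ± 0.14 (limma adjusted p = 1.03e-08). A CC2D2A intron differed from its gene by -1.56 on day 5 and by -1.66 ± 0.32 in ADAR+hnRNPC-targeted against ADAR-targeted cells on day 4 (chr4:15474880-15477525). The MLC1 intron differed from its gene by -1.39 and the CCNG2 intron by -1.10 on day 5.

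The member that was higher than its gene lay in PRMT3, whose gene fell further than the intron. The intron had a log2 fold change of -1.24 and the gene one of -2.48 in hnRNPC-targeted cells on day 5, a difference of 1.23 ± 0.24 (chr11:20515801-20529849, limma adjusted p = 0.000148). In ADAR+hnRNPC-targeted against ADAR-targeted cells on day 4 the difference was 1.42. The MFSD1 interval, for which the intron fell by 1.88 on the log2 scale, differed from its gene by -0.18.

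**Figure D5:**
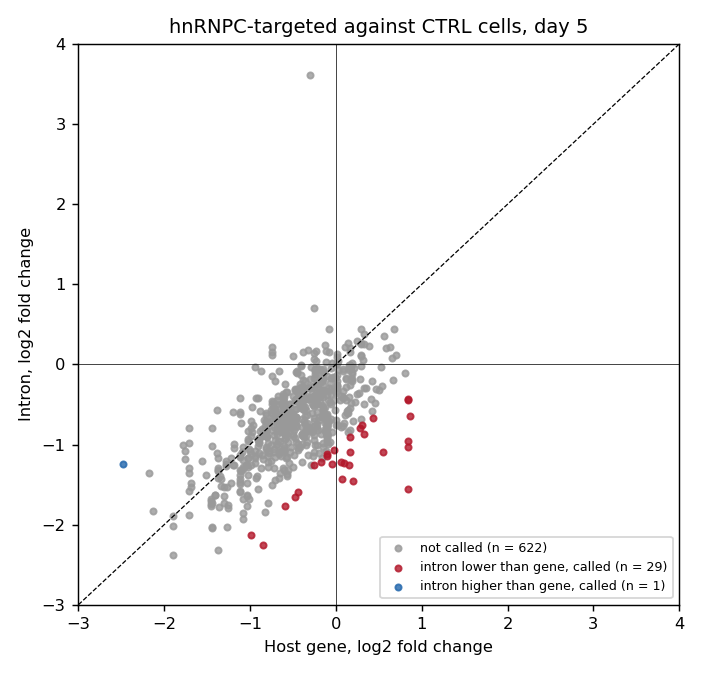
Log2 fold change of 652 members (vertical) against that of their host gene (horizontal) in hnRNPC-targeted against CTRL cells on day 5, with a dashed line where both are equal. The 29 red points are introns called lower than their gene by limma, the blue point is the PRMT3 intron called higher, and the 622 grey points were not called, among them the SAV1 intron at 3.61.

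Gene lists were counted among the hosts. Their member counts are read beside 708 of 13075 introns at 3 CPM or more, and no list was tested. Of all 13193 genes, 405 were lower and 608 higher in hnRNPC-targeted cells on day 5. In ADAR+hnRNPC-targeted against ADAR-targeted cells on day 4, 130 were lower and 427 higher. Of 4 genes that the study itself picked as putative targets of nonsense-mediated decay, and that are thus not independent of it, all were hosts, with 9 members of 22 introns. In hnRNPC-targeted cells on day 5, 7 of the 9 were lower with a median of -1.29, and on day 4 with the ADAR gRNA 4 were lower with a median of -0.96. The MFSD1 introns that end in long T runs were among these. The longer was at 14.1, 14.1, and 13.8 CPM in CTRL and 4.34, 4.21, and 5.43 CPM in hnRNPC-targeted cells (chr3:158531857-158537437, log2 fold change -1.58), and the shorter was at 8.32, 7.01, and 7.81 CPM and 3.02, 3.33, and 2.58 CPM (chr3:158525253-158526967, -1.36). The IARS2 intron was at 4.24, 4.11, and 3.76 CPM in CTRL and 1.17, 1.80, and 1.72 CPM in hnRNPC-targeted cells (chr1:220300186-220307743, log2 fold change -1.36). The EIF3D intron, in the gene of a translation initiation factor, was at 5.43, 5.33, and 5.83 CPM and at 2.02, 2.36, and 2.85 CPM (chr22:36912838-36913347, -1.19). The NUCKS1 intron, in the gene of a chromatin-associated protein, was at 6.15, 6.33, and 6.29 CPM and at 3.11, 3.16, and 2.96 CPM (chr1:205687608-205688654, -1.01). None of these overlapped. All 4 genes were lower in both comparisons of study 1. In study 2 their log2 fold changes in hnRNPC-targeted cells were -0.65, -0.67, -0.70, and -0.46 for MFSD1, NUCKS1, IARS2, and EIF3D, under the minimum fold of a call.

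In the sterol and fatty acid group, chosen after the values were seen, 59 of the 63 members were tested. In hnRNPC-targeted cells on day 5, 23 were lower with a median of -0.77, and in ADAR+hnRNPC-targeted against ADAR-targeted cells on day 4, 21 were lower with a median of -0.84. Of its 31 tested genes 8 were lower in each comparison (405 and 130 of all 13193 genes), with medians of -0.67 and -0.71. The first SCD intron of the table was at 13.9, 11.2, and 18.1 CPM in CTRL and 5.91, 5.61, and 7.62 CPM in hnRNPC-targeted cells on day 5, without overlap (chr10:102108104-102112122). Its log2 fold change was -1.16 ± 0.27 (edgeR adjusted p = 0.00127), and that of its gene -0.94. For FADS2, 0 of the 5 tested members were called on day 5 without the ADAR gRNA, with log2 fold changes from -0.85 to -0.46. On day 4 with the ADAR gRNA, 4 of 5 were lower. These comparisons are of different days, and the difference between them was not tested. Within day 4, the interaction test called 0 members. With IFN-α none of the 31 genes was lower (17 of all 13193 genes). In study 2, 1 of them was lower with HNRNPC targeting alone and 0 with both gRNAs (edgeR, 58 and 9 of all 13650 genes). Their medians were -0.57 and -0.31.

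Genes of DNA replication and mitosis held 5 members of 74 introns at 3 CPM or more, beside 708 of 13075 over all such introns. The 5 lay in TOP2A, MKI67, BUB1B, and CCNE2, and 0 of 5 were called in either comparison, with medians of -0.49 and -0.21. The MKI67 intron, in the gene of the proliferation marker Ki-67, was at 5.77, 4.09, and 4.15 CPM in CTRL and 5.05, 4.14, and 5.13 CPM in hnRNPC-targeted cells on day 5, which overlapped (chr10:129921434-129923839). Of the 34 genes, 1 was lower on day 5 and 0 on day 4. Ribosome biogenesis factors held 3 members of 43 introns, in NPM1, NCL, and POLR1A, none called, with medians of -0.77 and -0.54, and 0 of the 20 genes were called in either direction. Of 45 introns of snoRNA host genes, the SNHG16 interval was the 1 member. It was lower in both comparisons, and 0 of the 18 genes were called.

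Myeloid factors held 6 members of 39 introns, in AZU1, CD33, CSF1R, and PRTN3, of which 0 were called on day 5 and the PRTN3 intron on day 4, with medians of -0.29 and -0.54. Of the 18 tested genes of that list, 0 were lower in either comparison, with 1 and 2 higher (608 and 427 of all 13193 genes). Splicing factors of the hnRNP and SR families held 7 members of 130 introns, in HNRNPC, HNRNPH1, and SF1. The 2 HNRNPC introns were lower in both comparisons, the list's medians were -0.92 and -0.47, and 1 of its 29 genes, HNRNPC, was lower in each. Genes of the amino acid response and tRNA synthetases held 2 members of 46 introns, both in LARS1, the leucyl-tRNA synthetase. The LARS1 intron chr5:145492601-145493405 was at 13.5, 13.2, and 13.5 CPM in CTRL and 2.60, 3.28, and 3.86 CPM in hnRNPC-targeted cells on day 5, with no overlap and a log2 fold change of -2.03 ± 0.11. Of the 23 genes of that list, 3 were lower and 1 higher on day 5, and 0 were lower and 5 higher on day 4. Over all 13193 genes, 405 were lower and 608 higher on day 5, and 130 lower and 427 higher on day 4. IFN-induced genes held 0 members of 9 introns. Of these 32 genes, 8 were higher in hnRNPC-targeted cells on day 5, 28 in ADAR+hnRNPC-targeted cells on day 4, and 32 with IFN-α. Over all 13193 genes, 608, 427, and 157 were higher in these comparisons.

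The members were further described by sequence. In hnRNPC-targeted cells on day 5, 47 of 127 members with TTTTT near the 3′ end were lower, with a median log2 fold change of -0.84, and 139 of 556 without it, with a median of -0.67. In ADAR+hnRNPC-targeted against ADAR-targeted cells on day 4 the counts were 14 of 127 and 55 of 556, with medians of -0.50 and -0.52. Of members without any annotated exon base, 61 of 232 were lower on day 5, and of those that are mostly annotated exon, 32 of 178. These are descriptions of chosen introns, and the share lower among all introns of each class is not given beside them. The difference between the classes was not tested.

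Editing cluster regions (ECRs), counted separately by the authors, are stretches with many A-to-I sites, mostly in inverted repeats. Of 2528 tested ECRs, 70 lay with at least 0.5 of their length in 62 members. In hnRNPC-targeted cells on day 5, 19 of the 70 were lower (background 3.64%, edgeR), with a median of -0.73 beside -0.02 for all ECRs. In ADAR+hnRNPC-targeted against ADAR-targeted cells on day 4, 9 were lower (background 1.15%), with a median of -0.52 beside 0.11. These counts share reads with the introns and are not independent of them. Called lower in both were, among others, an ECR in HELLS, a chromatin remodeler (chr10:96366614-96368759, -1.78 and -1.26), an ECR in PCCB, a subunit of propionyl-CoA carboxylase (chr3:136049218-136051832, -1.75 and -1.25), and an ECR in FARSA, a subunit of phenylalanyl-tRNA synthetase (chr19:13036214-13038288, -1.32 and -1.15).

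The share of edited reads in the members was set beside that at all other editing sites. Over 9185 sites in 216 members, 3.38 to 3.85% of reads were edited in CTRL libraries on day 5, beside 3.54 to 3.86% at all other sites. In ADAR-targeted libraries it was 1.53 to 1.64% beside 1.51 to 1.59%, below every CTRL library, so the editing level does check the ADAR gRNA. In hnRNPC-targeted libraries it was 3.92 to 4.48% beside 4.15 to 4.65%, above the CTRL libraries at both kinds of site. In ADAR+hnRNPC-targeted libraries on day 5 it was 2.75 to 3.08% in the members and 2.46 to 2.59% at the other sites. These ranges did not overlap, but the libraries are among those that chose the members. In the same cells on days that the rule did not use, the ranges overlapped. They were 1.76 to 2.18% beside 1.83 to 1.98% on day 4 and 1.84 to 2.22% beside 1.87 to 2.10% on day 3. With IFN-α on day 4 the share in the members was 4.57 to 6.07% beside 5.45 to 7.07%.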

How the data were processed

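Ribosome-depleted RNA of THP-1 cells was sequenced in 48 libraries of study 1 and 18 of study 2. The libraries of study 1 were of total RNA. Those of study 2 were of total, cytosolic, or nuclear RNA, and all 18 entered the fit of its gene counts. All values used are counts, which the authors deposited without normalization. They aligned reads to GRCh37 with STAR (version 2.5.4a) and counted unique reads with featureCounts on GENCODE genes, on introns (gene spans without APPRIS exons), and on ECRs, and counted edited and all reads per site. The strand setting of the counting is not given in the sources used here, and 0 columns were without a sample.

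CPM used gene totals. edgeR (version 4.0.16) fitted all libraries with gene totals times TMM factors, after filters on the average log2 CPM (1 for introns, 0.5 for genes, 4.5 for ECRs), and limma (version 3.58.1) fitted log2 intron minus log2 gene CPM with a prior count of 2. Calls needed a log2 fold change of 1 and a Benjamini-Hochberg adjusted p of 0.05 over the whole table. The tests recovered the largest fold changes set in simulated counts, which held no replicate effect. Recovery of changes at the minimum fold of a call was not required. Introns were annotated with GENCODE lifted to GRCh37, newer than the authors' version.

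The members and gene lists were chosen with earlier results of these data known. Named were the 8 highest and 8 lowest-ratio members, up to 4 called in each direction per comparison, those nearest the threshold, the 5 hosts with the most members, members in the lists, and the 4 called with the largest intron-against-gene difference in each direction. ATL1 and SAV1 values, the FADS2, PCCB, HELLS, and FARSA regions, and the sterol group were singled out after their values were seen. Some genes and sequences of the members are not reported here.

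Replicate numbers come from the labels. Deviations from the group means correlated above 0.1 in 20 of 24 same-numbered pairs (-0.17 to 0.70). By this the numbers pair the samples for hnRNPC-targeted cells on days 4 and 5 and for ADAR-targeted and ADAR+hnRNPC-targeted cells on day 4. On day 3 the correlations were mixed. They were 0.43, -0.17, and 0.24 for hnRNPC-targeted with CTRL cells, and 0.05, 0.25, and 0.39 for ADAR+hnRNPC-targeted with ADAR-targeted cells. For IFN-α they were 0.46, -0.03, and 0.07. Alternatives were other normalizations, tools and filters, a replicate block, and leaving out each replicate.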

Additional observations from a re-analysis of the deposited data

How the results depend on the processing

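Of 214 alternative values of 18 results, 185 stayed within 1.5 times the value reported. Scaling by intron totals with TMM factors of introns gave 25 calls in place of 10 for hnRNPC-targeted cells on day 3, 92 in place of 58 on day 4, and 118 in place of 69 for ADAR+hnRNPC-targeted against ADAR-targeted cells on day 4, and 0 in place of 2 for IFN-α. It shifted the median of all introns by -0.17, -0.11, and -0.14 in the former 3, and turned the members' median under ADAR targeting on day 4 from -0.08 to 0.04. The 2 IFN-α introns became 1 with limma-voom, DESeq2, or the replicate block, and 0 with GFP-targeted cells as control. The 5 host genes of study 2 became 3 with limma-voom or without TMM. With intron and gene at an average log2 CPM of 3, 181 members remained for the intron-against-gene test, with 5 calls in place of 30 in hnRNPC-targeted cells on day 5 and 3 in place of 18 on day 4. A ratio of 0.4 gives 226 introns and one of 0.6 gives 1800.

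Leaving out 1 library gave 7 to 14 calls for hnRNPC-targeted cells on day 3, 49 to 95 on day 4 (95 without hnRNPC-targeted replicate 1), and 164 to 213 on day 5. It gave 13 to 29 for ADAR+hnRNPC-targeted against ADAR-targeted cells on day 3 (13 without ADAR-targeted replicate 2), 46 to 97 on day 4, 0 to 2 for IFN-α (0 without CTRL replicate 2), 1 to 2 for host genes and for introns against genes under IFN-α, 2 to 15 for hnRNPC-targeted cells of study 2 (15 without CTRL replicate 1, 2 without CTRL or hnRNPC-targeted replicate 2), and 0 to 5 for ADAR+hnRNPC-targeted cells of study 2 (0 without ADAR-targeted replicate 2). The replicate block gave 187 calls on day 5 and 59 on day 4 for hnRNPC-targeted and 68 on day 4 for ADAR+hnRNPC-targeted cells, and apart from IFN-α it moved no count of calls by over 1.5 times. Without the ATL1 and SAV1 introns, chosen after seeing the data, 190 and 69 introns were lower. The cause of these shifts was not tested. Of the members, 4 had too few counts to be tested.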
